A study of Mus musculus with 88 samples.

Results

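Nodal, Gdf3, Tdgf1, Lefty1 and Lefty2 are genes of the Nodal pathway, and they were followed through every RNA-seq library of a study of mouse embryonic stem cell (ESC) lines. The members were taken by gene name: each of the 5 names stood at 1 locus of the 21942 loci of the expression table. The series holds 88 samples, of which 26 are RNA-seq libraries and are used here, while the 62 bisulfite samples were not analysed here. The study asked how the medium in which ESC lines are derived sets their DNA methylation and transcriptome. All lines came from F1 embryos, and the labels name no engineered allele. In the cross of 129X1/SvJ with C57BL6 (the B6 cross), lines at passage 3 were derived in 4 media, with 2 XX and 2 XY lines for each. The first medium, 2i, blocks the kinases MEK and GSK3. In t2i the dose of MEK inhibitor is lowered, a2i blocks Src instead of MEK, and the last medium is serum. In the cross of 129X1/SvJ with MSM/Ms (the MSM cross), lines 15 and 2 (both XX) and lines 20 and 23 (both XY) were kept in 2i, while line 8 (XX) and line 12 (XY) were kept in serum, a group the labels call S, all at passage 3. The same cross gave 1 culture of 2i line 15 moved to serum and passaged 14 times more (2i-S), 2 libraries of mouse embryonic fibroblasts (MEFs) at passage 1, and 1 library of fibroblasts made from line 15 (2i MEF). Line 15 therefore supplied 3 libraries, passage cannot be told apart from culture history in 2i-S, and the labels give the MEF libraries conflicting sexes, so no sex was used for them.

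Nodal is a secreted ligand of the TGF-beta family that signals through activin receptors to SMAD2 and SMAD3, which enter the nucleus with SMAD4 and partners such as FOXH1. It needs a membrane-anchored co-receptor of the EGF-CFC family, of which Tdgf1 (Cripto) is the member known from the mouse epiblast, and Gdf3 is a related ligand that also acts through Cripto. Lefty1 and Lefty2 are secreted antagonists that bind Nodal or its co-receptor, and both are themselves induced by the pathway, which closes a feedback loop. In ESCs the loop runs on the cells' own Nodal and is known from work on pluripotency and on the exit towards mesoderm and endoderm.

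The values are RPKM (reads scaled to gene length and to the mapped reads of the library) as deposited by the authors, so levels can be compared between genes per length. Changes are differences of log2(RPKM + 1) fitted with limma, with adjusted p-values over all genes of the fit and a call under 0.05. Folds are on the same scale, which understates the change of genes near 1 RPKM. Libraries of a group correlated at 0.977 to 0.996 across genes, no pair was identical, and 11234 to 12558 genes reached 1 RPKM per library. Nothing in the labels says that lines of a group came from separate litters, so p-values measure the spread between lines. All 8 ESC markers reached 1 RPKM in every ESC library. In the fibroblast libraries only 1 of the 8 did, Klf4, at 76.9 and 125 RPKM in MEFs and 26.9 RPKM in 2i MEF. Pou5f1 was at most 0.244 RPKM in the fibroblast libraries. In bulk RNA, fewer cells expressing a gene and less RNA per cell cannot be told apart.

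The 4 serum libraries of the B6 cross also held fibroblast RNA: all 16 fibroblast markers reached 1 RPKM there, and their summed level was 871 to 1416 RPKM, beside 4.09 to 15.5 RPKM in the other B6 libraries. The fibroblast share was scaled to MEFs as the excess over the mean of the 2i lines of the same cross. It is therefore near 0 in 2i by construction. This share was 8.08% to 14.2% in B6 serum and at most 0.0153% in 2i, t2i and a2i. In the MSM cross it was 0.353% to 1.71% in S and 1.27% in 2i-S. The MSM 2i lines themselves had summed fibroblast marker levels of 16.8 to 62.8 RPKM, beside 70.9 to 182 RPKM in S. The reference was the MEF libraries of the MSM cross. On this scale the 2i MEF library gave 178%, so the share depends on the fibroblasts taken as reference and is approximate. The 5 members themselves were at or near 0 in MEFs. Nodal was listed at 0 and 0.0206 RPKM in the MEF libraries and at 0.0326 RPKM in the 2i MEF library. Gdf3 was listed at 0.0462, 0 and 0 RPKM in these libraries, and Tdgf1 at 0, 0.130 and 0.0357 RPKM. Lefty2 was listed at 0 in all 3. Lefty1 was the only member near 1 RPKM, at 0.930, 1.18 and 0.610 RPKM. All 5 were called lower in MEFs than in 2i ESCs (limma, adjusted p at most 3.61e-05), where 71.1% of all genes were called. None passed between 2i MEF and MEF (limma, adjusted p at least 0.971, smallest with Lefty1 at −0.35, SE 0.61), where 0.454% of genes were called. With 1 library of 2i MEF, assumed to vary like the other groups, and levels this low in both, that comparison says little about the members. Some results against serum are therefore given also with this share subtracted, an alternative chosen after seeing the data.

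**Figure D1:**
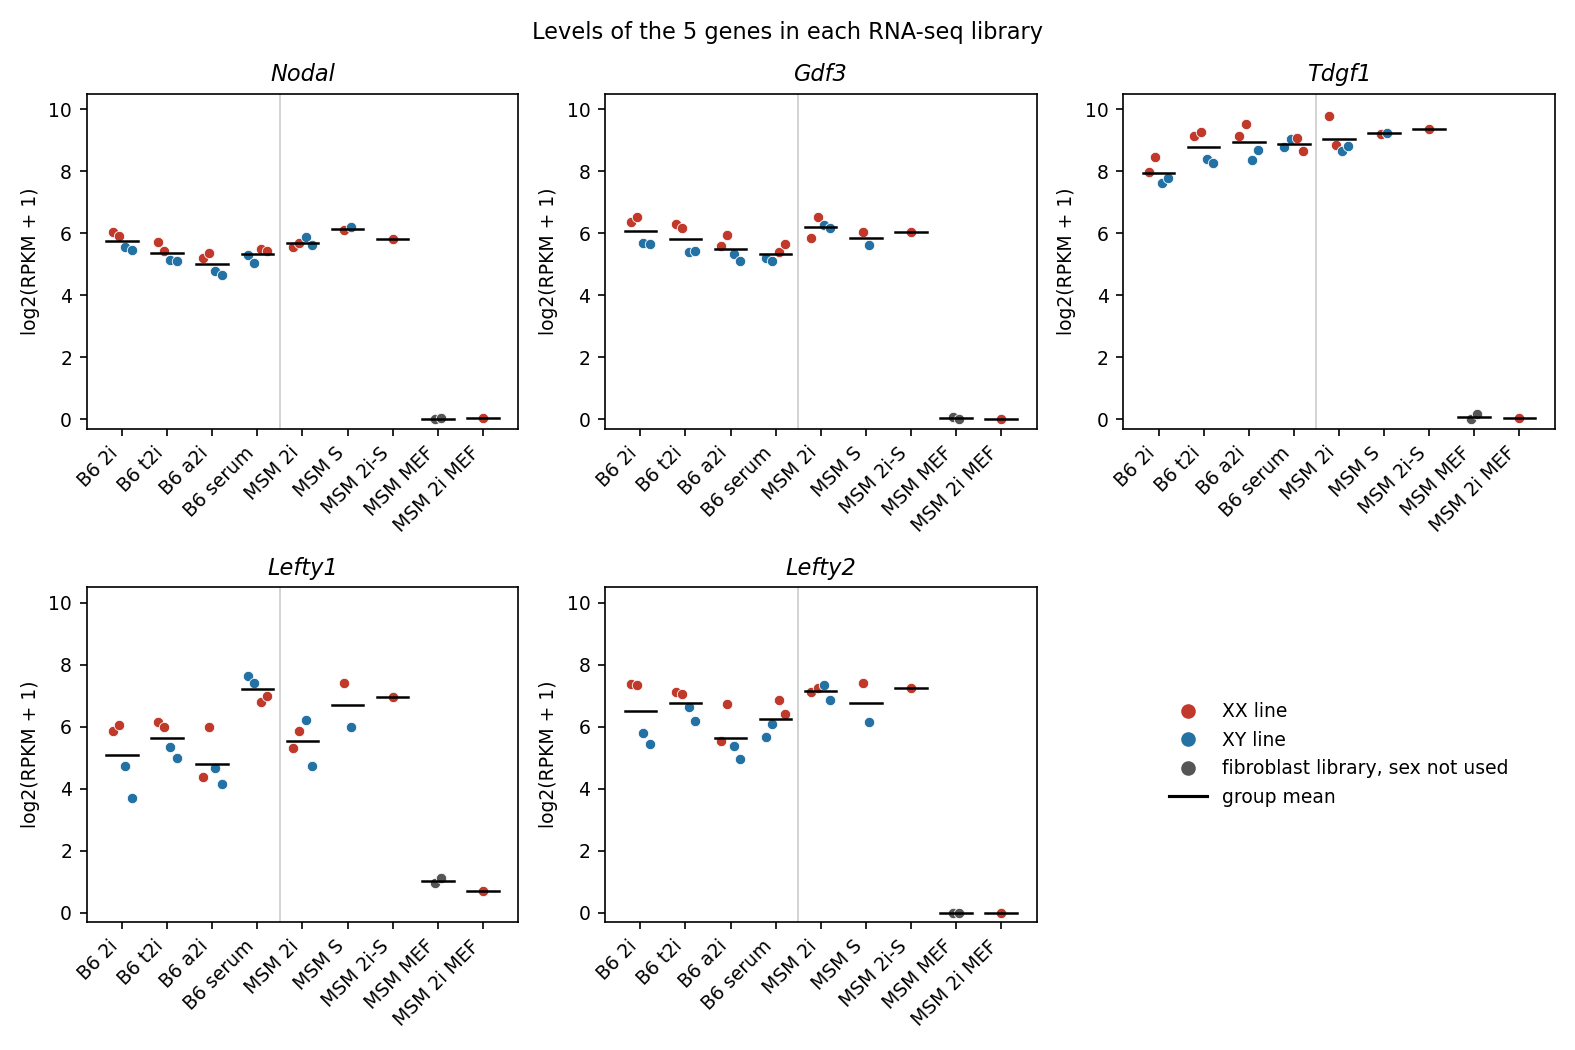
Level of each gene as log2(RPKM + 1) on the vertical axis, 1 panel per gene, in the 9 culture groups of both crosses; each point is 1 library, red for XX, blue for XY and grey for MEFs (2i MEF takes the colour of its line 15), and the bar is the group mean. Tdgf1 is the highest of the 5 genes in every ESC group, Lefty1 stands highest in B6 serum, and all 5 genes drop to about 0 or 1 in fibroblasts.

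Tdgf1 was the most abundant member in every ESC group, at a mean of 252 RPKM in B6 2i and 453 to 545 RPKM in the other B6 media and in MSM 2i, and its range did not overlap that of the next member. Lefty2 came next in 2i, t2i and a2i, with a mean of 106 RPKM in B6 2i, 110 RPKM in t2i, 55.1 RPKM in a2i and 140 RPKM in MSM 2i. In the B6 media without serum its range overlapped that of the next member, while in MSM 2i it did not. In B6 serum Lefty1 came next, with a mean of 150 RPKM against 78.5 RPKM for Lefty2, although their ranges overlapped. Nodal and Gdf3 had lower means than Lefty2 and overlapped each other in all 4 B6 media. Outside serum Lefty1 was low as well. It had the lowest mean of the members in B6 2i (39.8 RPKM), a2i (30.7 RPKM) and MSM 2i (48.8 RPKM), overlapping Nodal in each. In t2i its mean (51.1 RPKM) lay between those of Gdf3 and Nodal.

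Nodal, the ligand (ENSMUSG00000037171.6, chr10:61417972-61425338, mm10), ranged from 24.1 to 65.0 RPKM over the B6 lines. In B6 2i it stood at 65.0 and 59.5 RPKM in the XX lines and at 45.4 and 42.5 RPKM in the XY lines. In t2i the XX lines gave 51.3 and 42.2 RPKM and the XY lines 34.3 and 33.1 RPKM. In a2i the XX lines gave 35.4 and 39.7 RPKM and the XY lines 26.7 and 24.1 RPKM. So 2i was highest and a2i lowest, with t2i between them, and in each of these media both XX lines lay above both XY lines. In serum the XX lines gave 43.9 and 41.6 RPKM and the XY lines 38.3 and 32.2 RPKM, which overlaps t2i and a2i and reaches the low end of 2i. Nodal was higher in 2i than in serum by 0.42 on the log2 scale (SE 0.09, limma adjusted p = 0.00166), a 1.34-fold difference that shrank to 0.25 (adjusted p = 0.0334) with the fibroblast share subtracted. Against 2i it fell in a2i by 0.74 (SE 0.09, limma adjusted p = 2.2e-04). The fall in t2i, 0.39 (SE 0.09, limma adjusted p = 0.0178), lost its call when any of 2i lines c3 or c2 or t2i lines t3, t2 or t6 was left out (adjusted p up to 0.0664). Nodal in a2i was also below serum (−0.32, SE 0.09, limma adjusted p = 0.0131), a call lost without a2i line a3 or serum line 10.

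Gdf3, the related ligand (ENSMUSG00000030117.5, chr6:122605403-122610087, mm10), was highest in 2i and lowest in serum. Its B6 2i lines gave 81.8 and 90.7 RPKM (XX) and 50.7 and 49.2 RPKM (XY). In t2i it stood at 77.4 and 71.2 RPKM in XX and at 40.7 and 41.6 RPKM in XY lines, and in a2i at 47.3 and 60.8 RPKM in XX and 39.5 and 33.5 RPKM in XY lines. Serum gave 40.5 and 49.0 RPKM in XX and 35.6 and 33.0 RPKM in XY lines. Every 2i line lay above every serum line. Gdf3 was 1.66-fold higher in 2i than in serum (log2 0.73, SE 0.10, limma adjusted p = 4.5e-05) and 1.41-fold higher in t2i than in serum (0.49, SE 0.10, adjusted p = 0.00129). In a2i it was lower than in 2i (−0.56, SE 0.10, limma adjusted p = 0.00222) and did not pass against serum (0.17, SE 0.10, adjusted p = 0.186). Across the 16 B6 libraries, Nodal and Gdf3 correlated at r = 0.83 on the log2 scale. These libraries share media and sexes, so the points are not independent.

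Tdgf1, the co-receptor (ENSMUSG00000032494.12, chr9:110939603-110946158, mm10, read from the minus strand), moved the other way. It had 247 and 346 RPKM in the XX lines and 197 and 219 RPKM in the XY lines of B6 2i. In t2i the XX lines had 556 and 612 RPKM and the XY lines 334 and 309 RPKM. In a2i the XX lines had 564 and 737 RPKM and the XY lines 326 and 409 RPKM. Within either sex, no t2i or a2i line overlapped the 2i lines. Serum lines had 533 and 402 RPKM (XX) and 436 and 521 RPKM (XY), all above every 2i line. Tdgf1 was 1.9-fold lower in 2i than in serum (log2 −0.93, SE 0.14, limma adjusted p = 1.1e-04). Subtracting the fibroblast share widened this to −1.10 (SE 0.13). Against 2i it rose 1.75-fold in t2i (0.81, SE 0.14, limma adjusted p = 0.00351) and 1.96-fold in a2i (0.97, SE 0.14, adjusted p = 6.0e-04). Neither t2i nor a2i passed against serum (−0.12 and 0.05, SE 0.14 each, limma adjusted p = 0.511 and 0.816). The mouse genome also holds the pseudogenes Tdgf1-ps1 and Tdgf1-ps2, on other chromosomes and not among the table's loci, and no source used here says how reads matching several copies were treated.

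The bases before the starts of Tdgf1 and Nodal are shown because RefSeq promoter entries (GRCm38.p6) matched these 2 of the 5 members. Any relation of these sequences to the changes between media was not tested. Lefty1, Lefty2 and Gdf3 are named only. Each line gives 250 bases up to the start, 5′ to 3′ on the gene's own strand, and capitals mark matches to 5 motifs searched on both strands: CAGAC (SMAD), AATNNACA (FOXH1), CTTTGAA (TCF/LEF), ATTTGCAT (OCT octamer) and TTCNNNGAA (STAT).
Tdgf1, chr9:110946159-110946408, minus strand: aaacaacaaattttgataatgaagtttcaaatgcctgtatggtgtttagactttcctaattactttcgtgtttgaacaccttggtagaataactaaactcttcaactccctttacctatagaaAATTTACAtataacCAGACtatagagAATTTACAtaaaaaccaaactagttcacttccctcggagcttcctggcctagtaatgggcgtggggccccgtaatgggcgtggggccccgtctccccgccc
Nodal, chr10:61417722-61417971, plus strand: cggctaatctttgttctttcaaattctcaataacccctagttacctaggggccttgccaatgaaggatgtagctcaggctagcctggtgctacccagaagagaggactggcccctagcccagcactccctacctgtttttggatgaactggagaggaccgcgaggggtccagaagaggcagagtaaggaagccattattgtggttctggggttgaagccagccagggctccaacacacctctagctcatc
The Tdgf1 window holds AATTTACA at 127 and again at 101 bases before the start, and CAGAC at 113 bases before it, between the pair. The Nodal window holds no match to any of the 5. Of 32851 promoter windows of this length, 42.2% hold CAGAC, 10.9% hold AATNNACA, 4.46% hold CTTTGAA, 1.60% hold ATTTGCAT and 7.02% hold TTCNNNGAA. The 3 matches in the Tdgf1 window do not overlap, and a match describes letters, not a bound site.

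The antagonists split. Lefty1 (ENSMUSG00000038793.8, chr1:180935022-180938400, mm10) was far higher in serum, and Lefty2 (ENSMUSG00000066652.5, chr1:180893108-180899103, mm10) was not. Lefty1 stood at 56.8 and 64.8 RPKM in the XX lines and at 25.6 and 11.9 RPKM in the XY lines of B6 2i. Serum lines gave 111 and 125 RPKM (XX) and 197 and 169 RPKM (XY), above every line of the other B6 media. The t2i lines gave 70.6 and 63.1 RPKM (XX) and 39.8 and 30.7 RPKM (XY), and the a2i lines 19.9 and 61.9 RPKM (XX) and 24.3 and 16.9 RPKM (XY), with a2i XX line a18 the highest of its 4. Lefty1 was lower than in serum by 4.36-fold in 2i (log2 −2.13, SE 0.29, limma adjusted p = 6.5e-05). The same held by 2.99-fold in t2i (−1.58, adjusted p = 8.2e-04) and by 5.31-fold in a2i (−2.41, adjusted p = 3.3e-05). It did not pass in t2i or a2i against 2i (0.55 and −0.28, SE 0.29 each, limma adjusted p = 0.295 and 0.595). The highest serum level, 197 RPKM in line 10, came with the highest sum of 8 primitive endoderm markers, 126 RPKM beside 25.9 to 31.3 RPKM in the other 3 serum lines. Without line 10 the difference of 2i from serum was −2.07 (SE 0.34, limma adjusted p = 5.2e-04).

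Lefty2 stood at 166 and 162 RPKM in the XX lines of B6 2i and at 54.0 and 42.6 RPKM in the XY lines. In t2i it gave 137 and 132 RPKM in XX and 98.9 and 71.1 RPKM in XY lines, and in a2i 45 and 104 RPKM in XX and 40.9 and 30.3 RPKM in XY lines. Serum gave 114 and 84.1 RPKM in XX and 49.9 and 66.2 RPKM in XY lines, inside the range of 2i. Lefty2 in 2i did not pass against serum (0.24, SE 0.22, limma adjusted p = 0.388). It was called lower in a2i than in 2i (−0.84, SE 0.22, limma adjusted p = 0.0238), than in t2i (−1.10, SE 0.22, adjusted p = 0.0364) and than in serum (−0.60, SE 0.22, adjusted p = 0.0486). These 3 calls are fragile. The first was lost without 2i lines c3, c4 or c2 or a2i lines a4 or a3 (−0.54 without a4), the second without any t2i line or without a2i lines a1 or a3, and the third without any serum line or without a2i lines a4 or a3. All 3 were also lost without the filter on low values (limma adjusted p = 0.0536, 0.0933 and 0.0818) and with only the 8 libraries of the media compared (0.0513, 0.116 and 0.0919). Quantile normalization ended the calls against t2i and against serum (limma adjusted p = 0.0648 and 0.0644), and a pseudocount of 0.1 that against serum (0.0501).

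**Figure D2:**
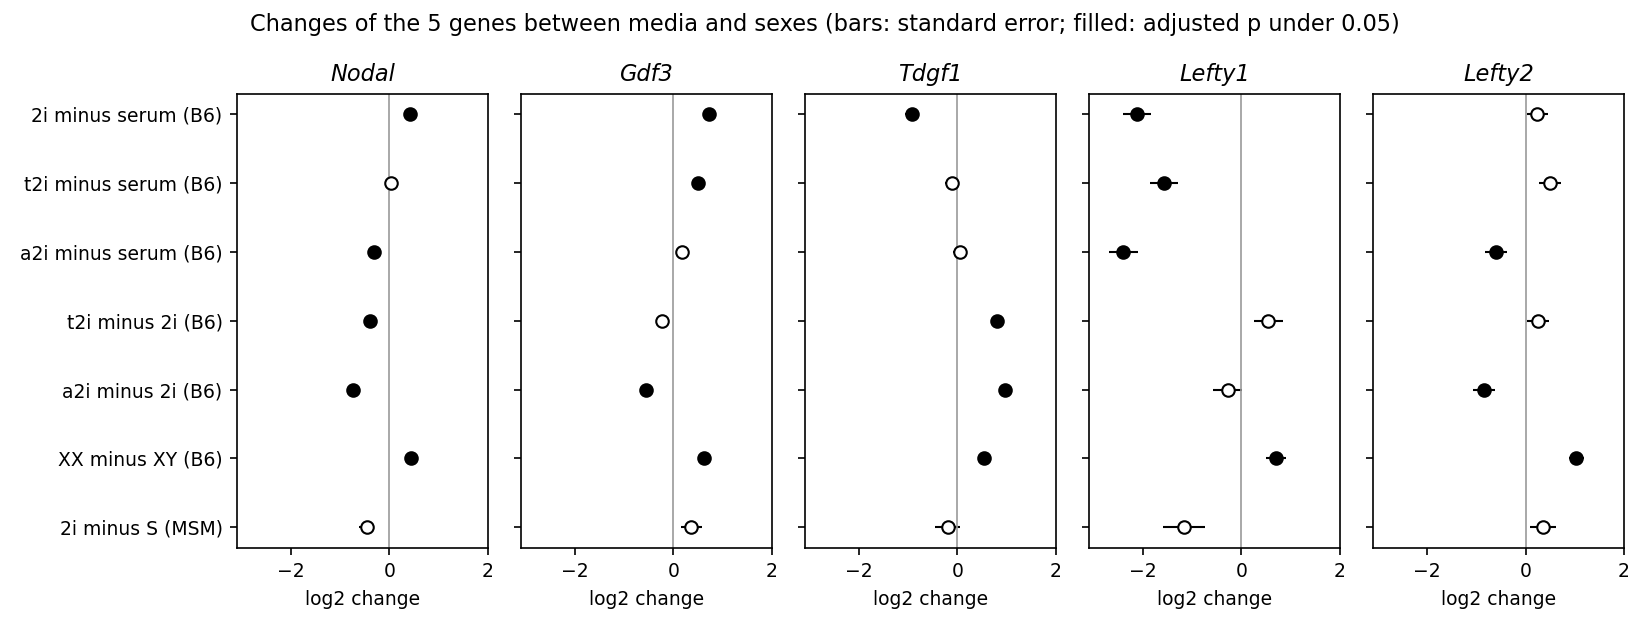
Fitted log2 change of each gene (horizontal axis) in 6 comparisons of the B6 cross and in 2i minus S of the MSM cross; bars are standard errors and filled points have an adjusted p under 0.05. Lefty1 lies at −2.13 in 2i minus serum, Tdgf1 is positive against 2i in both t2i and a2i, and all 5 genes are positive in XX minus XY.

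Counted together, 4 of the 5 members were called in 2i against serum, where 47.6% of all genes were called. In a2i against 2i it was 4 of 5 beside 13.8% of genes, and in t2i against 2i 2 of 5 beside 8.08%. In a2i against t2i, 1 of 5 was called beside 1.0% of genes. Against serum, 2 of 5 were called in t2i beside 43.8% and 3 of 5 in a2i beside 37.4%. The 4 calls of 2i against serum went in both directions and were made again under each of 13 alternatives tried. Comparisons that share the 2i or the serum lines are not independent of each other.

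The ratio of the antagonists shows the split within each library, free of any scaling between libraries. Lefty1 over Lefty2 was 0.280 to 0.474 in B6 2i, 0.402 to 0.516 in t2i and 0.442 to 0.594 in a2i. In B6 serum it was 0.973 to 3.94, with the XY lines at 2.56 and 3.94 and the XX lines at 0.973 and 1.49. The MSM cross, whose S libraries hold little fibroblast RNA, gave 0.223 to 0.456 in 2i, 0.905 and 1.0 in S and 0.808 in 2i-S. In both crosses, then, every serum culture had a higher ratio than every 2i line. The paralogs are alike in sequence, and no source used here says how reads matching both were shared out, so their part in the ratio was not tested. Tdgf1 over Nodal was 3.81 to 5.82 in B6 2i, 9.31 to 14.5 in t2i, 12.2 to 18.6 in a2i and 9.66 to 16.2 in serum, so B6 2i lay below all other B6 libraries. Both antagonists summed over Nodal gave 3.43 and 3.82 in the XX lines and 1.28 and 1.75 in the XY lines of B6 2i, beside 5.03 to 7.32 in serum. The same ratio was 3.07 to 4.64 in t2i and 1.84 to 4.18 in a2i, all below serum. In the MSM cross it did not separate the media, at 2.90 to 4.13 in 2i, 5.03 and 1.83 in S lines 8 and 12 and 5.01 in 2i-S. For Tdgf1 over Nodal, MSM 2i did not share the low ratio of B6 2i, at 6.96 to 19.0, beside 8.39 and 8.65 in S.

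**Figure D3:**
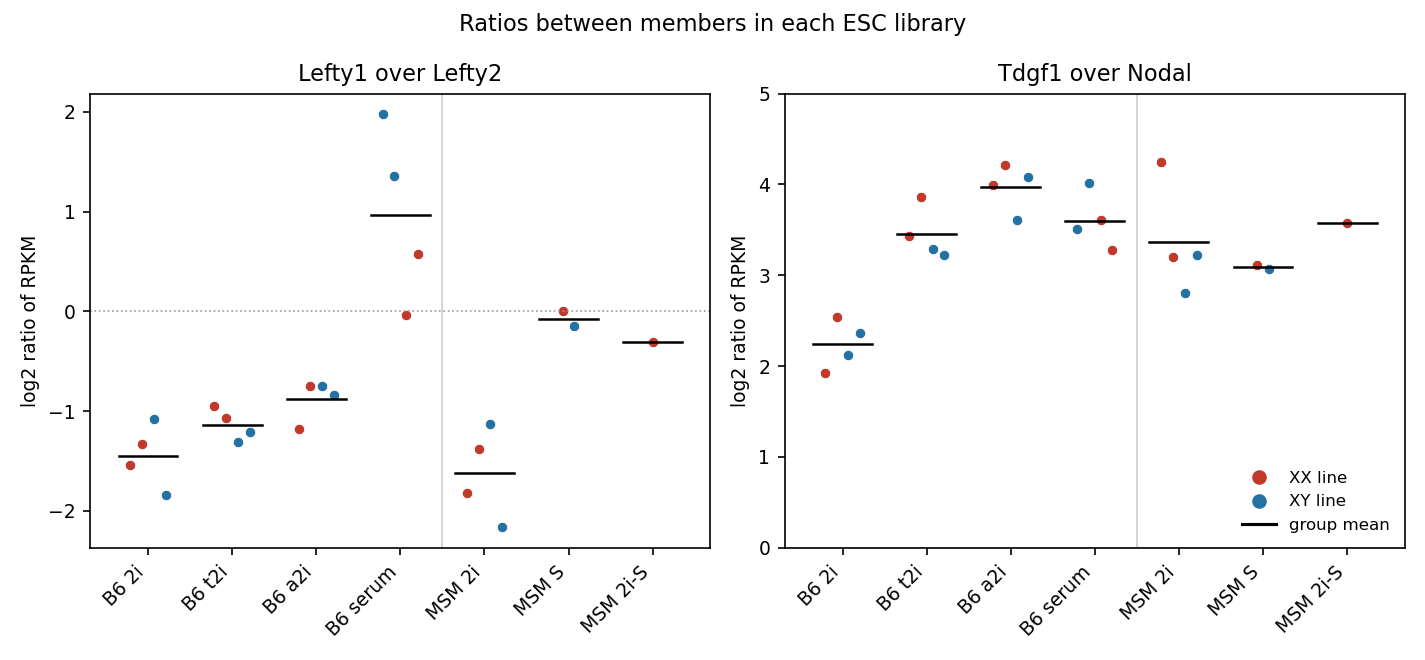
Log2 ratio of RPKM of Lefty1 over Lefty2 (left) and of Tdgf1 over Nodal (right) in each ESC library by culture group; red points are XX lines, blue points XY lines and bars group means. The left panel shows every serum culture (B6 serum, MSM S and 2i-S) above every 2i line, and the right panel shows B6 2i below all other B6 groups.

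Lefty1 and Lefty2 lie 35.9 kb apart on chromosome 1. Beside Lefty1, on the side away from Lefty2 and 3.94 kb from it, Tmem63a, a membrane channel protein, fell in 2i against serum (−1.36, SE 0.25, limma adjusted p = 6.9e-04). It ran from 2.26 to 12.5 RPKM in 2i and from 12.0 to 19.4 RPKM in serum, and MEFs had 13.8 and 15.3 RPKM. With the fibroblast share subtracted, Tmem63a stood at −1.36. Sde2, beyond Lefty2, did not pass (0.18, SE 0.08, limma adjusted p = 0.0838). Neither neighbour of Nodal was called in 2i against serum (Pald1 at 0.00 and Eif4ebp2 at −0.18), although Eif4ebp2 was called with the share subtracted (−0.30, adjusted p = 0.0470). Beside Gdf3, Dppa3, a germ cell and preimplantation gene, fell (−1.02, SE 0.21) where Gdf3 rose, and Apobec1 was at −0.26 (SE 0.15, not called). Beside Tdgf1, Lrrc2 rose (0.52, SE 0.13) where Tdgf1 fell, and Gm590 was at 0.00 (SE 0.20).

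All 5 members were higher in XX than in XY lines of the B6 cross, averaged over the 4 media (n = 8 and 8 lines), in a comparison that called 41.5% of genes (21.4% higher in XX). The difference was 2.05-fold for Lefty2 (log2 1.03, SE 0.16, limma adjusted p = 1.9e-04) and 1.62-fold for Lefty1 (0.70, SE 0.21, adjusted p = 0.0167). It was 1.55-fold for Gdf3 (0.63, SE 0.07, limma adjusted p = 1.2e-05), 1.45-fold for Tdgf1 (0.53, SE 0.10, adjusted p = 7.2e-04) and 1.36-fold for Nodal (0.44, SE 0.06, adjusted p = 1.2e-04). All members are autosomal, and each kept its call and direction under the 20 alternatives run. Both XX lines lay above both XY lines in all 4 media for Nodal, Gdf3 and Lefty2, which held for 5.75% of autosomal genes. For Tdgf1 this held in 3 media, and in serum the ranges overlapped.

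Lefty1 was the exception in serum. There the XY lines, at 197 and 169 RPKM, lay above the XX lines, at 111 and 125 RPKM, while in 2i both XX lines lay above both XY lines. The difference of the medium effects between the sexes was 2.36 on the log2 scale (SE 0.59, limma adjusted p = 0.0276), and 1 of 5 members was called where 8.17% of genes were. That call was lost without any of the 4 serum lines, without 2i lines c3, c4 or c6, and without the filter on low values (adjusted p up to 0.0903), with the estimate between 1.84 and 2.88. Of the sex by medium terms for t2i and a2i against 2i, none of the 5 was called, beside 1.26% and 4.93% of genes (limma; Lefty2 alone had an unadjusted p under 0.05, in t2i). Without a2i line a18, Lefty2 was called in the a2i term (−1.41, adjusted p = 0.0437).

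In the 2i lines of the MSM cross the sexes overlapped for 4 of the 5 genes. The MSM 2i values of Nodal were 45.8 and 50.2 RPKM in XX and 57.0 and 48.4 RPKM in XY lines. Lefty2 gave 136 and 150 RPKM in XX and 161 and 115 RPKM in XY lines, and Gdf3 56.5 and 90.0 RPKM in XX and 75.8 and 70.1 RPKM in XY lines. Lefty1 spread widest relative to its mean, at 38.5 and 57.7 RPKM in XX and 73.3 and 25.6 RPKM in XY lines. Tdgf1 had 869 and 461 RPKM in XX and 397 and 452 RPKM in XY lines, with line 15 the highest of the 4. In a fit of the 8 2i lines of both crosses, chosen after these values were seen, 0 of 5 members differed between XX and XY in the MSM cross, where 7.63% of genes did (limma). None of the 5 had an unadjusted p under 0.05 there, and leaving out line 2 called Tdgf1 (1.03, adjusted p = 0.0267). In the B6 cross 3 of 5 were called, beside 14.3% of genes: Lefty2 at 1.75 (SE 0.19, limma adjusted p = 9.3e-04), Lefty1 at 1.73 (SE 0.47, adjusted p = 0.0432) and Gdf3 at 0.77 (SE 0.21, adjusted p = 0.0396). The Lefty2 call was made in all 11 alternatives, while leaving out any B6 line ended those of Lefty1 (adjusted p up to 0.231) and Gdf3 (up to 0.189), and leaving out MSM line 20 or 23 also ended that of Gdf3. The sex difference itself differed between the crosses for Lefty2, by −1.68 (SE 0.27, limma adjusted p = 0.0462), 1 of 5 members beside 0.348% of genes. This call was lost in 8 of 11 alternatives, among them leaving out MSM lines 15 or 20 or any B6 line (adjusted p up to 0.213, estimates from −1.92 to −1.44). For Nodal the difference was −0.62 (SE 0.21, adjusted p = 0.306) and for Gdf3 −0.80 (SE 0.29, adjusted p = 0.345).

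Between 2i and S of the MSM cross, 0 of 5 members were called, beside 17.0% of genes, with 4 lines against 2 (limma; unadjusted p under 0.05 for 2 of 5 (Nodal, Lefty1)). Nodal had 67.2 and 72.1 RPKM in S, above all 4 2i lines, and stood at −0.46 in 2i against S (SE 0.15, limma adjusted p = 0.0646). Lefty1 had 169 RPKM in XX line 8 and 62.8 RPKM in XY line 12 of S, and stood at −1.17 (SE 0.43, adjusted p = 0.10). Leaving out 2i line 20 called Lefty1 at −1.58 (adjusted p = 0.0116). Lefty2 had 169 and 69.4 RPKM in the same S lines (0.36, SE 0.26, adjusted p = 0.382), so both antagonists were higher in line 8 than in line 12. Tdgf1, with 582 and 604 RPKM in S, was at −0.20 (SE 0.25), and Gdf3, with 64.4 and 48.5 RPKM, at 0.36 (SE 0.21), called at 0.54 only without 2i line 15 (adjusted p = 0.0391).

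The medium effect on Nodal differed between the crosses: the difference of 2i against serum, MSM minus B6, was −0.89 (SE 0.16, limma adjusted p = 0.00317), 1 of 5 members beside 11.6% of genes. B6 2i lines lay mostly above serum, and MSM 2i lines all below S. This call was made in all 18 alternatives (adjusted p up to 0.0252), and with the fibroblast share of serum and S subtracted it was −0.73. None of the other 4 passed, with Tdgf1 at 0.73 (SE 0.33, adjusted p = 0.169) and Lefty1 at 0.96 (SE 0.73, adjusted p = 0.430). Comparing the 2i lines directly, Tdgf1 was 2.09-fold higher in the MSM than in the B6 cross (1.07, SE 0.21, limma adjusted p = 0.00434), again 1 of 5, beside 18.6% of genes. Sample titles call the media c2i and serum in the B6 cross, and 2i and S in the MSM cross. Strain therefore cannot be told apart from any difference in media or handling between the crosses.

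After the move of line 15 from 2i to serum, Lefty1 read 122 RPKM in 2i-S, beside 38.5 RPKM in the same line in 2i, while Lefty2 read 151 and 136 RPKM. Nodal read 54.5 beside 45.8 RPKM, Gdf3 65.1 beside 56.5 RPKM and Tdgf1 647 beside 869 RPKM. With 1 culture of 2i-S, 0 of 5 members passed against 2i, beside 1.22% of genes, and 0 of 5 against S, beside 0.00744% (limma; none had an unadjusted p under 0.05 against S, nor against 2i). Lefty1 came closest against 2i, at 1.14 (SE 0.59, adjusted p = 0.397). The single library is assumed to vary like the other groups, and with 1 of 13443 genes called against S that comparison says little about the members.

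The other genes of the pathway came from 7 lists with 42 genes, of which 34 passed the filter in the B6 cross. In 2i against serum 21 were lower and 2 higher, with a median of −0.71 beside −0.09 for all genes tested. Of all genes, 30.7% were called lower and 16.8% higher. The fibroblast RNA of serum touches this count, since 26 of the 42 genes reached 1 RPKM in both MEF libraries. With the share subtracted, 18 were lower and 3 higher of 32 tested (median −0.60, all genes −0.07), where 43.3% of all genes were called. Quantile normalization put the median of all genes at 0.08 and turned the genes called from 2215 higher and 4042 lower into 3877 higher and 2764 lower. On that scale 19 pathway genes were lower and 5 higher. With the fibroblast share subtracted, 7 of the 10 fibroblast markers still tested were lower in 2i and 2 were higher (median −2.39). As deposited, all 16 were lower (median −4.40). How far the remaining pathway differences reflect fibroblasts was not tested.

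All 5 SMAD2/3 feedback targets were lower in 2i than in serum, as deposited, after subtraction and after quantile normalization. As deposited, 30.7% of all genes were called lower. Skil, a SMAD corepressor, was at 6.44 to 9.06 RPKM in B6 2i and at 19.2 to 30.6 RPKM in serum (−1.55, SE 0.10, limma adjusted p = 9.8e-08), and at −1.53 with the share subtracted. In the MSM cross Skil was again lower in 2i, at 8.57 to 11.6 RPKM beside 44.0 and 48.7 RPKM in S (−2.17, SE 0.17, adjusted p = 7.9e-04). It was the 1 of the 5 feedback targets called there, beside 17.0% of genes, and the median of the 5 was −0.07. Pmepa1, which restrains SMAD signalling, stood at −1.12 (SE 0.14, limma adjusted p = 2.2e-05), and at −0.57 with the share subtracted. Smad7, the inhibitory SMAD, stood at −0.61 (SE 0.14, limma adjusted p = 0.00381). In 2i against S neither passed, with Pmepa1 at −0.07 (SE 0.20, limma adjusted p = 0.839) and Smad7 at 0.75 (SE 0.30, adjusted p = 0.122). The medium effect differed between the crosses for 2 of the 5 feedback targets, beside 11.6% of genes, 1 of them Pmepa1 (MSM minus B6 1.05, SE 0.28, limma adjusted p = 0.0302).

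Of the 7 tested other ligands, all were lower in 2i against serum, beside 30.7% of all genes, and 5 of 6 with the share subtracted. Inhbb, an activin subunit, was at 0.204 to 0.645 RPKM in 2i and at 10.4 to 12.4 RPKM in serum (−3.06, SE 0.16, limma adjusted p = 8.5e-09), and at −3.03 with the share subtracted. Inhba, the other activin subunit, was listed at 0 in all 2i, t2i and a2i lines of the B6 cross and at 13 to 23.8 RPKM in serum, beside 79.1 and 115 RPKM in MEFs. Tgfb3, also expressed by fibroblasts, lost its call on subtraction (−0.98, adjusted p = 0.0832). Of the receptors, Tgfbr2, the TGF-beta receptor, was lower (−2.20, SE 0.09, limma adjusted p = 1.0e-09) at 49.5 and 66.7 RPKM in MEFs, and Acvr2b, a Nodal receptor, was lower (−0.68, SE 0.13, adjusted p = 7.5e-04) at 0.183 and 0.238 RPKM in MEFs. No other receptor of the 5 tested was called as deposited. With the share subtracted, 4 receptors were tested and 1 was lower in 2i, so Tgfbr2 and Acvr2b did not both keep their calls. Acvr2a was then called higher in 2i (0.74, SE 0.19, limma adjusted p = 0.00673). Of 4 tested secreted antagonists, Fstl3 and Fst, which bind activins, were lower (−1.62, SE 0.11 and −1.49, SE 0.14, limma adjusted p = 8.4e-08 and 1.9e-06), and Fst lost its call on subtraction. Of 7 SMADs and nuclear partners 3 were lower, beside 30.7% of all genes. They were led by the corepressor Ski (−0.98, SE 0.16, limma adjusted p = 2.1e-04) and the signal transducer Smad3 (−0.89, SE 0.18, adjusted p = 0.00151). With the share subtracted, 5 of the 7 were lower, where 43.3% of all genes were called in either direction.

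Pcsk6, a convertase that cleaves the Nodal precursor, and Gsc, a mesendoderm target, were the 2 that rose. Pcsk6 was at 23.6 to 38.6 RPKM in B6 2i and 13.3 to 21.7 RPKM in serum (0.75, SE 0.09, limma adjusted p = 3.2e-05). In the MSM cross it was at 34.0 to 61.4 RPKM in 2i and 17.7 and 18.3 RPKM in S (1.22, SE 0.19, adjusted p = 0.00562). Gsc was at 3.02 to 9.37 RPKM in B6 2i and 0.316 to 2.93 RPKM in serum (1.54, SE 0.18, limma adjusted p = 1.7e-05), and rose in the MSM cross as well (1.27, SE 0.30, adjusted p = 0.0279). T (Brachyury), another mesendoderm gene, was lower in 2i than in serum (−0.92, SE 0.27, limma adjusted p = 0.0130), a call not made after quantile normalization. Of the 34 genes tested in the MSM cross, 2 were higher and 3 lower in 2i than in S, where 17.0% of all genes were called. The 3 were Skil, Foxh1 (−1.11, SE 0.18, limma adjusted p = 0.00701) and Gdf1, whose values are uncertain because it shares a transcript with Cers1.

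**Figure D4:**
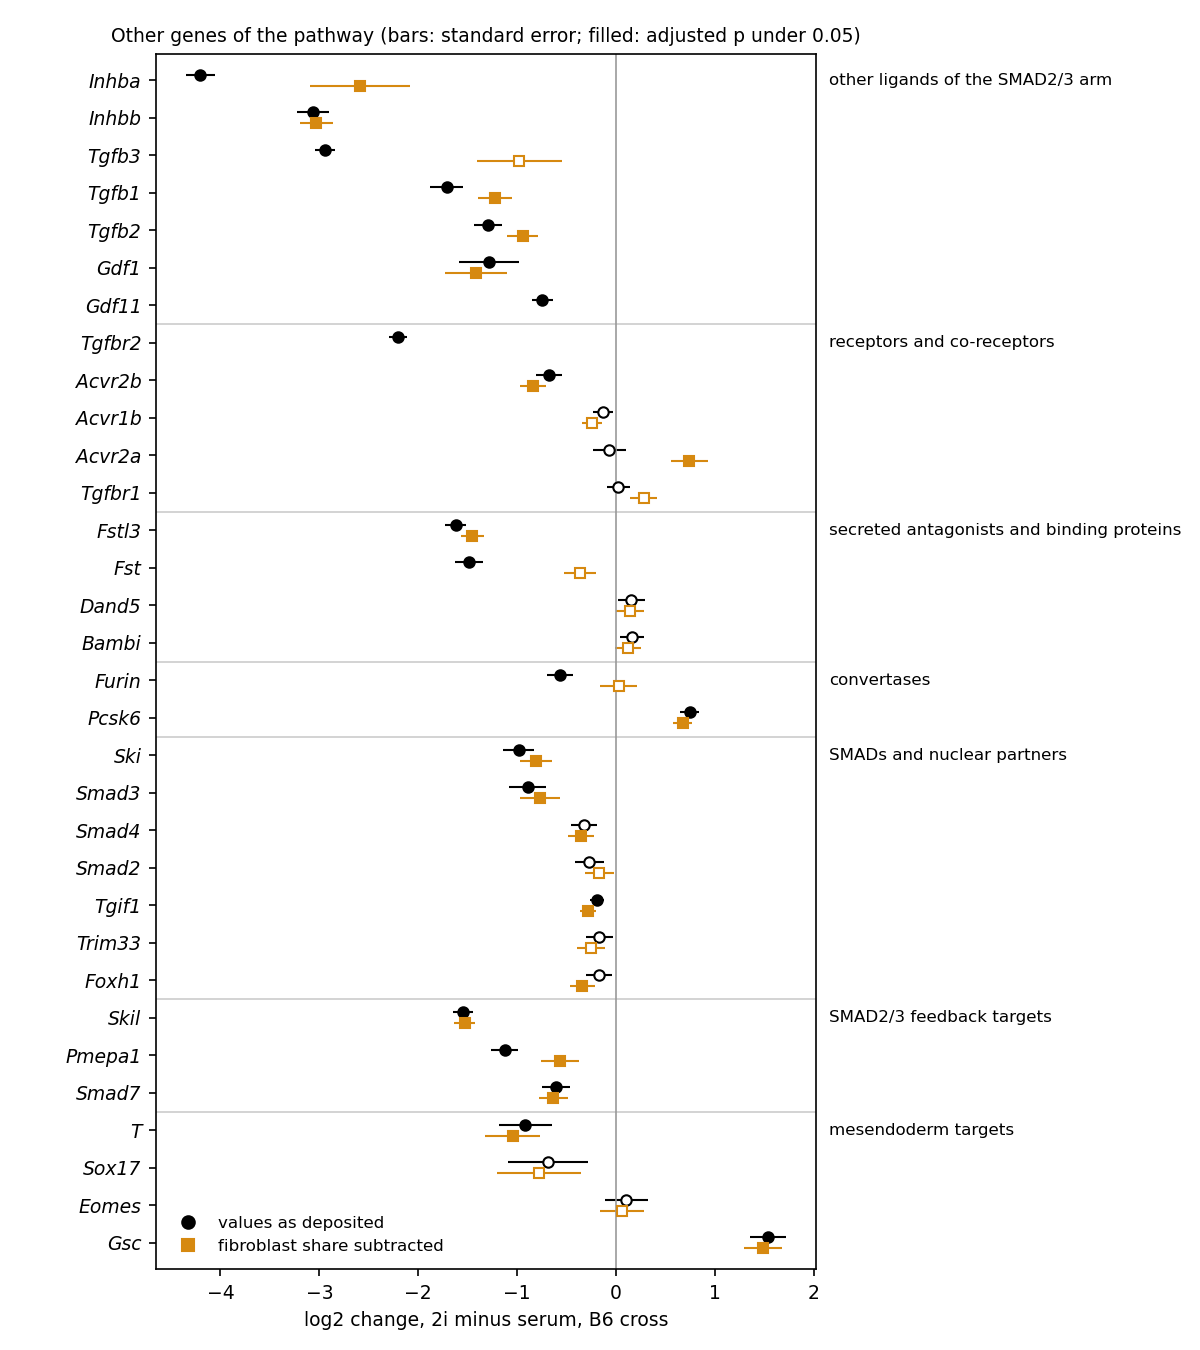
Log2 change in 2i minus serum of the B6 cross (horizontal axis) for tested genes of 7 pathway lists; black circles are values as deposited, orange squares values with the fibroblast share of serum subtracted (absent where the gene no longer passed the filter), bars are standard errors and filled symbols have an adjusted p under 0.05. The 3 feedback targets drawn lie left of 0 in both versions, while Pcsk6 and Gsc lie right of 0.

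Against 2i, fewer of the other genes moved: 2 rose and 2 fell in t2i, and 7 rose and 3 fell in a2i, of 34 tested (median −0.04 in t2i beside 0.01 for all genes). Of all genes, 8.08% were called in t2i and 13.8% in a2i. Pcsk6 and Gsc fell in both. Pcsk6 stood at −0.55 in t2i (SE 0.09, limma adjusted p = 0.00410) and −0.48 in a2i (adjusted p = 0.00496), and Gsc at −0.99 (SE 0.18, adjusted p = 0.00584) and −1.05 (adjusted p = 0.00226). Inhbb rose in both, by 0.82 in t2i (SE 0.16, limma adjusted p = 0.00798) and by 1.07 in a2i (adjusted p = 9.1e-04). T and Eomes, mesendoderm transcription factors, rose in a2i (1.25, SE 0.27 and 0.79, SE 0.21, limma adjusted p = 0.00836 and 0.0277). Eomes was low, at 0.936 to 4.54 RPKM in 2i and 3.48 to 7.22 RPKM in a2i. After quantile normalization, 1 of the 4 mesendoderm genes tested was called higher in a2i.

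Between the sexes, 11 of the 34 were higher and 8 lower in XX lines of the B6 cross (median 0.05, all genes −0.01), beside 21.4% of all genes higher and 41.5% called in either direction. Both convertases were higher, Furin at 0.77 (SE 0.09) and Pcsk6 at 0.59 (SE 0.07, limma adjusted p = 2.5e-05 and 1.8e-05). Of the 5 feedback targets 3 were higher, among them Smad7 at 0.56 (SE 0.10, limma adjusted p = 7.4e-04) and Pmepa1 at 0.36 (SE 0.10, adjusted p = 0.00946). Of the 4 tested secreted antagonists outside the Lefty genes, 3 were lower, led by Fst (follistatin) at −0.79 (SE 0.10, limma adjusted p = 3.7e-05), and Fstl3 was higher at 0.39. Gsc was higher at 1.30 (SE 0.13) and T lower at −1.17 (SE 0.19, limma adjusted p = 3.2e-04). Tgfb1, a ligand of the TGF-beta receptors, was lower at −1.18 (SE 0.12, limma adjusted p = 6.1e-06). Among the 2i lines alone, Tgfb1 was lower in XX lines of both crosses (−1.94 in B6 and −1.26 in MSM, SE 0.25 each, limma adjusted p = 0.00206 and 0.0211), and so was Fst (−1.05 and −1.58, SE 0.21 each, adjusted p = 0.0118 and 0.00386).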

How the data were processed

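RNA-seq libraries (stranded mRNA kit, per the labels' protocols) were analysed from the RPKM values deposited by the authors, 1 column per library. The submitters' processing notes name cutadapt 1.9.1, TopHat2 2.1.0, Bowtie2 2.2.5, Cufflinks 2.2.1 and build mm10; which tool made the RPKM values and the annotation release are not given in the sources used here. RPKM gives no read depth, so no counting interval could be computed. From these values, log2(RPKM + 1) was fitted with limma 3.58.1 (trend, R 4.3.3), keeping genes at 1 RPKM or more in at least 2 libraries of the fit, with Benjamini-Hochberg adjustment over all genes. The B6 fit had 8 medium by sex means over 16 libraries, the MSM fit group means with an XX term among ESCs, and the fit across crosses 14 libraries. The fit of the 8 2i lines was added after seeing the data. The fibroblast share was the median over 16 marker genes of the excess over the 2i lines of the same cross, relative to MEFs. The scripts were tested on simulated data, tables were handled in pandas 2.3.3 and numpy 2.4.6 (Python 3.11.15), and plots were drawn in matplotlib 3.10.9. Named beside the members are up to 3 called genes of each pathway list with the largest change, the nearest tested locus on either side of each member, and the 3 genes of highest Pearson r with each member. The members and lists were chosen with earlier results of these data known. Alternatives were another pseudocount, no filter, quantile normalization, fewer libraries in the fit, and each library left out. Some genes of the lists and 1 neighbouring locus are counted or were tested but are not reported here by name.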

Additional observations from a re-analysis of the deposited data

Results flagged for a closer look

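The effect of 2i against serum on Lefty1 differed by sex in the B6 cross, by 2.36 on the log2 scale (SE 0.59, limma adjusted p = 0.0276). It was drawn out because an interaction term passed its threshold. That call was lost when any serum line or some of the 2i lines were left out, and without the filter on low values.

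The effect of 2i against serum on Nodal differed between the crosses by −0.89 (SE 0.16, limma adjusted p = 0.00317), being positive in the B6 cross (0.42) and negative in the MSM cross (−0.46, not called there by itself).

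The XX against XY difference of Lefty2 in 2i lines differed between the crosses by −1.68 (SE 0.27, limma adjusted p = 0.0462), with 1.75 in the B6 cross and 0.07 in the MSM cross. This comparison was chosen after the values were seen, and its call was lost in most of the alternatives tried.

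Of 25 groups of 4 libraries, 0 had a highest or lowest library whose gap to the next passed the critical value of Dixon's test. The gap as a share of the range was largest for Tdgf1 in MSM 2i line 15 (0.809) and Lefty1 in a2i line a18 (0.723).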

How the results depend on the processing

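Lines of 2i and t2i share 3 numbers of the same sex, while 2i and a2i share 1 such number and the other pairs of B6 media 0. Deviations from the medium by sex means correlated at −0.25 for number 3 and at 0.0023 for numbers 2 and 6. With 2 lines per medium and sex, the values for numbers 2 and 6 are the same by construction. Deviations from the medium means, which keep the sex difference, correlated at 0.39, 0.52 and 0.58 for numbers 3, 2 and 6. The lines were taken to share only a number. A replicate block on the 3 numbers, chosen after seeing the data, used 6 libraries and called 0 of 5 members (2 with all libraries) and 3 genes in t2i against 2i. The same 6 libraries with a sex term in place of the block gave 0 members and 15 genes. In the block Nodal stood at −0.45 (limma adjusted p = 0.254) and Tdgf1 at 0.85 (0.147). By deviations from the medium means, 1 of the 3 2i lines correlated best with the t2i line of its own number.

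No called value of a member changed sign. Uncalled ones did, such as Lefty1 in a2i against 2i (0.11 without a4). The members called moved as follows, and the cause was not tested. Through Lefty2, a2i against 2i went from 4 to 3 without the filter and with only the 8 libraries, a2i against serum from 3 to 2 with either of these, pseudocount 0.1 or quantile normalization, and t2i against serum from 2 to 3 with the 8 libraries. Without the filter on low values, a2i against t2i, the sex by medium term for 2i against serum and the sex difference between crosses went from 1 to 0, and XX against XY in the B6 2i lines from 3 to 1. With quantile normalization, a2i against t2i and the sex difference between crosses went from 1 to 0, and with only the 8 libraries of its media a2i against t2i also gave 0. With 1 library left out, the range was 1 to 2 in t2i against 2i (2 with all), 0 to 2 in a2i against t2i, 1 to 3 in a2i against serum (3 with all), 0 to 1 in the sex by medium terms for 2i against serum and for a2i against 2i, 0 to 1 in 2i against S, 1 to 4 in XX against XY in B6 2i lines, 0 to 1 in MSM 2i lines and 0 to 1 in their difference.

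Counts of all genes called moved most with a library left out: from 1062 to 569 in t2i against 2i, 132 to between 17 and 196 in a2i against t2i, 1074 to 582, 166 to 46 and 648 to 161 in the sex by medium terms for 2i against serum, t2i against 2i and a2i against 2i, 2290 to 662 in 2i against S, 164 to 0 in 2i-S against 2i, 61 to between 7 and 109 in 2i MEF against MEF, 1544 to 699 between crosses and 2473 to 1487 between the 2i lines of the crosses. Among 2i lines they moved from 1765 to between 590 and 2457 (B6), 942 to 270 (MSM) and 43 to between 3 and 99 (difference), and in 2i-S against S from 1 to between 0 and 40 over all alternatives. Quantile normalization turned the medium difference between crosses from 1263 higher and 281 lower to 693 and 505. RPKM leaves the read depth unknown.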

Other observations

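Across the 16 B6 libraries, the 3 genes whose log2 values followed each member most closely were found among 13149 other genes by Pearson r. For Nodal they were Meis2 (0.94), Pcmt1 (0.92) and Nceh1 (0.91). For Gdf3 they were Xlr4b, Magea4 and Smtnl1 (0.95 each). For Tdgf1 they were Fundc2 (0.92), Eras (0.87) and Snapin (0.86). For Lefty1 they were Cand2 (0.93), Sh3pxd2b and Myh10 (0.92 each). For Lefty2 they were Slc33a1 (0.93), Ap1s2 (0.89) and Dusp27 (0.88). Among the members, Nodal and Lefty2 correlated at 0.77 and Lefty2 and Gdf3 at 0.75, Lefty1 and Lefty2 at 0.49, Lefty1 and Gdf3 at 0.03 and Nodal and Tdgf1 at −0.16. The libraries share media and sexes, so these values describe this set of libraries only.

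In serum lines of the B6 cross, 8 primitive endoderm markers summed to 126 RPKM in line 10 and to 25.9 to 31.3 RPKM in the other 3, beside at most 14.2 RPKM in the other B6 media and 97.5 and 153 RPKM in MEFs. Line 10 also had the highest Lefty1 over Lefty2 ratio, 3.94. Their part in the levels of the 5 genes was not tested.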
